A study of Mus musculus with 2 samples.

Results

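The genes described here are 79 autosomal protein-coding genes of 15 families of developmental transcription factors, examined for binding of the histone demethylase LSD1 in mouse brown adipocytes. They were chosen by name alone: the symbol is that of a numbered sine oculis homeobox gene (such as Six2), or is Pax, Lhx, Dlx, Nkx, Irx, Emx, Otx, Msx, Pitx, Tbx, Barx, Gsx, Vax or Meis with a number after it, in the GENCODE M21 annotation. They are 79 of 20722 autosomal protein-coding genes, and of 21853 protein-coding genes when the sex chromosomes are counted. The families hold 14 Nkx, 12 Tbx, 9 Pax, 7 Lhx, 6 Dlx, 6 Irx, 6 sine oculis, 3 Msx, 3 Pitx and 3 Meis genes, and 2 each of Emx, Otx, Barx, Gsx and Vax.

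Chromatin immunoprecipitation and sequencing was done on primary brown adipocytes of C57BL/6 N mice with the genotype given as control, passaged 2 to 3 times. All cells had been grown on collagen with 20% fetal bovine serum and then differentiated for 10 days in an adipogenic mixture. It held the hormones insulin (850 nM) and T3 (1 nM), the glucocorticoid dexamethasone (1 µM), the PPARγ agonist rosiglitazone (1 µM), isobutylmethylxanthine (500 µM) and indomethacin (125 nM), and fixation lasted 5 min. The 2 samples are DNA precipitated with a homemade LSD1 antibody and input DNA without antibody, with 1 library for each. The processed data are a list of 59175 LSD1 peaks on mm10, each with a score set by the authors (range 50.1 to 3224, median 111) on a scale that no label or header states. With 1 library there is no replicate error, the read depth is unknown and no test between genes was made. Ranges in brackets after a share are Wilson 95% intervals, which hold counting error alone, and neighbouring genes are not independent. The list holds no RNA levels, so the labelled cell type was not checked against marker genes, and a peak says nothing here of whether a gene was active.

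Homeobox, paired-box and T-box genes encode transcription factors that lay out the body plan and set organ and cell identity in the embryo. Most of them start in long stretches rich in CpG dinucleotides, and in cells of other lineages many are held silent by Polycomb complexes. LSD1, which takes methyl groups off histone lysines, works with CoREST proteins and histone deacetylases and is known from stem cells and the blood system as a regulator of developmental genes. Several members have a place in fat biology. Many brown adipocytes descend from dermomyotome cells that have passed through a Pax3- and Pax7-positive state, the T-box genes Tbx15 and Tbx1 mark particular fat depots or beige fat, and Irx3 and Irx5 lie in the region of the obesity-associated Fto locus.

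A gene was counted as occupied when a peak reached to within 1 kb of a transcript start that codes for protein. Of the 79 genes, 54 were occupied, which is 68.4% (57.5 to 77.6%), against 58.2% of all autosomal protein-coding genes. A peak between 10 kb upstream of the gene and its end was present for 71 members, 89.9% (81.3 to 94.8%), against 72.8% of all genes. Hence 17 members had a peak nearby but none at a start, and 8 had none in the whole stretch. That stretch had a median length of 18.1 kb for the members and 27.6 kb for all genes. Scores of the 54 occupied promoters ran from 76.8 (Nkx2-1) to 2340 (Irx5) with a median of 293, beside a median of 318 for all occupied genes. Measured against the quartiles of all occupied genes, 15 members scored under the lower quartile of 159, 14 between it and the median, 11 between the median and the upper quartile of 574, and 14 above. A promoter peak above the upper quartile of the whole peak list (193) was found at 39 members, 49.4% (38.6 to 60.2%), against 40.4% of all autosomal genes. The occupied members thus ran through the whole range of scores.

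These shares read differently among genes with CpG-rich promoters, those in deciles 5 to 10 of the CpG ratio (observed over expected CpG in 1 kb around the start), where 70 of the 79 members and 12433 genes in all belong. There 53 of 70 members were occupied, 75.7% (64.5 to 84.2%), against 85.2% of all such genes. A nearby peak was present for 66 members, 94.3% (86.2 to 97.8%), and for 93.7% of all such genes. The stretch searched for nearby peaks differed, with a median of 18.6 kb for these members and 36.2 kb for all such genes. A promoter peak above 193 was found at 39 members, 55.7% (44.1 to 66.8%), against 62.8%. The members were thus not above all CpG-rich genes in promoter occupancy or in high-scoring promoter peaks, and for the latter and for nearby peaks the share of all such genes lay inside the members' interval.

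Occupied and unoccupied members are shown by the 250 bases before their annotated starts, read from GRCm38.p6, the same chromosomes as mm10, with every CpG in capitals. Irx5 had the highest score of the families, and Vax1 the highest CpG ratio among the unoccupied members. Pax3, a dermomyotome gene, is the occupied member with the fewest CpGs of those shown. Meis1 is an occupied member with a peak centred on the start, and Nkx2-2 had the longest distance to any peak.
Irx5, chr8:92357375-92357624, plus strand: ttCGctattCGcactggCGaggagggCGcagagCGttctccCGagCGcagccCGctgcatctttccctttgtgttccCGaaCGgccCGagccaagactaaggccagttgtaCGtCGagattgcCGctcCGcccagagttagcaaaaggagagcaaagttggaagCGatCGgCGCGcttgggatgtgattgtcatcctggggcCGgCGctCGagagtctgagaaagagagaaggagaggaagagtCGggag
Vax1, chr19:59170057-59170306, minus strand: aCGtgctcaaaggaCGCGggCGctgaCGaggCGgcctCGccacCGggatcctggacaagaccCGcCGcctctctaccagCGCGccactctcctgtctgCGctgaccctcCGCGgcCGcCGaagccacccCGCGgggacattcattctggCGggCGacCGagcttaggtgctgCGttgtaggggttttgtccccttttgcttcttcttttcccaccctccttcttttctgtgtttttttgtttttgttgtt
Pax3, chr1:78197135-78197384, minus strand: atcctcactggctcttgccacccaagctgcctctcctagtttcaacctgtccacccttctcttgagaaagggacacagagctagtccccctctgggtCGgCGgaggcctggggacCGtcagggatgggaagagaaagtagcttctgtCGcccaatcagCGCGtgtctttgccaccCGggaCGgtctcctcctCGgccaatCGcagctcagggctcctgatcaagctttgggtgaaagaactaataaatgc
Meis1, chr11:19018986-19019235, minus strand: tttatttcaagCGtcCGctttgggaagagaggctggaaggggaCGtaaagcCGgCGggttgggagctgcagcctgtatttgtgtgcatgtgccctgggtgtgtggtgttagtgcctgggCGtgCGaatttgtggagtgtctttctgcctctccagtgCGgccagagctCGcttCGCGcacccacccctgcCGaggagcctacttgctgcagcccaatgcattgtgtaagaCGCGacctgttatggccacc
Nkx2-2, chr2:147194244-147194493, minus strand: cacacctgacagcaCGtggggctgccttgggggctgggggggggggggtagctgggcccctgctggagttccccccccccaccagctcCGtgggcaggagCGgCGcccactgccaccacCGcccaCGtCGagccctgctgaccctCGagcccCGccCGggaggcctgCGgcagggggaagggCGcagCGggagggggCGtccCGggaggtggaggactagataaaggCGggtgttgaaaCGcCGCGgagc
Irx5 and Vax1 each held 23 CpGs, Pax3 held 10, and Meis1 held 14 and Nkx2-2 held 19. All 250 bases lay under a peak at Irx5, Pax3 and Meis1, and 0 bases did at Vax1 and Nkx2-2. Across all 79 members the median was 14 CpGs in this stretch (15 for the occupied, 11 for the unoccupied), against 8 for all autosomal genes.

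**Figure D1:**
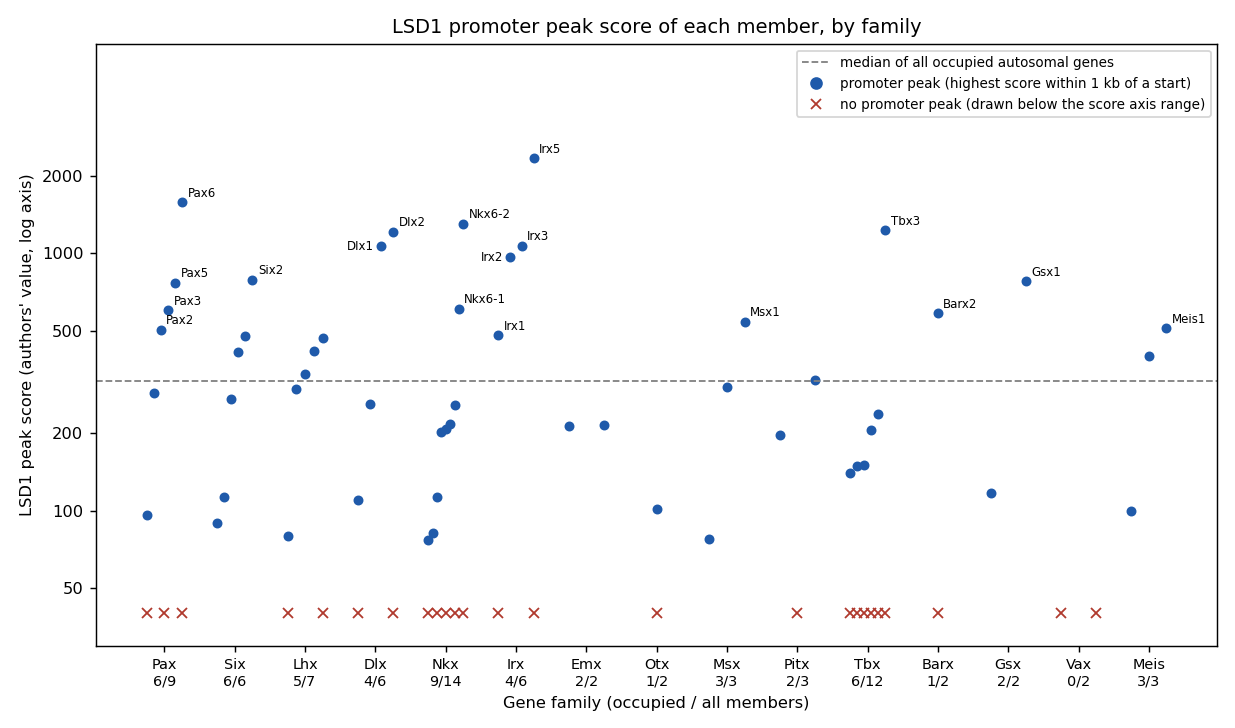
Promoter peak score of every member by family. The vertical axis is the authors' score on a log scale, blue points are occupied members, red crosses are members without a promoter peak (placed under the scores and carrying no value), and the dashed line is the median of all occupied autosomal genes, 318. The Irx points all lie above the line, while the Nkx and Tbx families each have 1 or 2 high points above a group of low ones.

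The Iroquois genes, which pattern limb, heart and neural tissue, had the highest median score of the families with more than 2 occupied members, 1019. Irx5 (chromosome 8, 92357625–92376286) carried a peak of score 2340 at 92355678–92358381, the highest of any member. Its neighbour Irx3 scored 1071, Irx2 scored 968 and Irx1 scored 482, so all 4 occupied Irx genes stood above the median of 318. Irx4 and Irx6 had no promoter peak, with the nearest peak 7855 bp and 28330 bp from a start. The Irx5 peak also lay within 1 kb of the start of the noncoding RNA Crnde, the Irx3 peak of Irx3os and the Irx2 peak of Gm20554. These peaks therefore cannot be assigned to the coding start alone. Of the highest promoter peaks of the 54 occupied members, 13 lay this close to a long noncoding RNA start (24.1%, 14.6 to 36.9%), against 13.2% of all occupied genes. For 1 member, Six6, the peak lay this close to another coding start (1.85%, 0.328 to 9.77%), against 19.7% of all occupied genes.

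Among the Distal-less genes, regulators of craniofacial, forebrain and skin development, the pairs went apart. Dlx1 and Dlx2, which lie side by side on chromosome 2, scored 1064 and 1215. Dlx3 scored 261 and Dlx4 scored 110. Dlx5 and Dlx6, a pair that also acts in bone formation, had no promoter peak. The nearest peak to Dlx6 was 1549 bp upstream with a score of 412, near the start of Dlx6os1, and that of Dlx5 was an intronic peak 1256 bp away with a score of 78.4.

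In the Pax family 6 of 9 genes were occupied, where 6.42 would be at the shares of their CpG deciles. Pax6, the master gene of eye development, had the second highest score of all members, 1577, at 105674815–105677052 on chromosome 2. Pax6 has 10 annotated protein-coding starts, and 8 of them had a peak within 1 kb. Pax5, a B cell regulator, scored 769, Pax3 scored 600, the kidney gene Pax2 scored 505, the sclerotome gene Pax1 scored 288 and Pax9 scored 96.0. Pax7 (chromosome 4, 139737062–139833528), the satellite cell factor of skeletal muscle, had no promoter peak, and its 3 nearby peaks were intronic with scores of 80.5, 91.5 and 151. Pax3 (chromosome 1, 78101267–78197134), with which Pax7 shares its role in the dermomyotome, had 7 nearby peaks, among them the promoter peak at 78196070–78198065 and an intronic peak of score 317. The stretch searched was 106 kb long at both genes. Pax4 and Pax8, which act in the endocrine pancreas and the thyroid, had no promoter peak, and their promoters lay in CpG deciles 1 and 4.

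All 6 genes of the sine oculis family were occupied, where 4.89 would be at the shares of their CpG deciles. Six2, which maintains nephron progenitors, scored 789, Six5 scored 478, and the muscle regulator Six4 scored 272. The eye and forebrain genes Six6 and Six3 had the lowest scores of the family, 113 and 89.8. At Six4, Six5, Six6 and Six3 the peaks lay beside the starts and covered none of them, at distances of 289, 40, 375 and 365 bp, and at Six2 a peak covered a start. Six5 had 6 nearby peaks in a searched stretch of 14.0 kb, 1 of them at the promoter of its neighbour Dmpk.

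Of the 7 LIM homeobox genes 5 were occupied, where 5.73 would be at the shares of their CpG deciles. Lhx2, a forebrain and hair follicle factor, scored 471, the gonad gene Lhx9 scored 418, the pituitary gene Lhx3 scored 341, Lhx1 scored 298 and Lhx4 scored 80.2. Lhx5 and the interneuron gene Lhx6 had no promoter peak and nearest peaks at 4156 and 1219 bp. All 7 had 2 or more nearby peaks, with 5 at Lhx9 and 4 at Lhx2, and both Lhx1 and Lhx9 had 3 peaks over promoters.

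The Nkx family had 9 of 14 genes occupied, where 10.5 would be at the shares of their CpG deciles. The median score of the occupied Nkx genes was 208. Nkx6-2 scored 1302 and Nkx6-1, which acts in beta cells and motor neurons, scored 611. The remaining 7 occupied genes lay between 76.8 and 258, among them the cardiac factor Nkx2-5 (218) and the lung and thyroid factor Nkx2-1 (76.8). Nkx2-2, Nkx2-3, Nkx2-6, Nkx3-2 and Nkx6-3 had no promoter peak. Nkx2-2 (chromosome 2, 147177546–147194243), a neural tube and pancreas factor, lay 99617 bp from the nearest peak, the longest distance of any member. Nkx1-1 had a promoter peak of only 258 and a peak of 797 at 33437714–33438830 on chromosome 5, with its midpoint at -4296 bp from the start and near the start of the noncoding gene Gm43851.

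T-box genes were occupied in 6 of 12 cases, where 7.92 would be at the shares of their CpG deciles. Tbx3, a limb and mammary gland regulator, stood alone with a score of 1231. Its peak also lay within 1 kb of the start of the noncoding RNA Tbx3os1, so it cannot be assigned to the coding start alone. The other 5 occupied genes scored between 141 and 237. These included Tbx2 (237), the heart gene Tbx20 (207), Tbx18 (151), Tbx1 (149) and Tbx15 (141). Tbx15 (chromosome 3, 99240381–99354259) carried 7 separate peaks with scores from 80.0 to 141, 4 of them over its promoters, and none reached the median promoter score of 318. These peaks were found in a searched stretch of 124 kb. The forelimb and hindlimb genes Tbx5 and Tbx4, the mesoderm gene Tbx6, the pituitary gene Tbx19, Tbx10 and Tbx21, which directs T helper cells, had no promoter peak. Of these, the promoters of Tbx5, Tbx6, Tbx19 and Tbx10 lay in CpG deciles 4, 3, 4 and 2, and those of Tbx4 and Tbx21 in 5 and 7. Tbx5 had no peak within 24325 bp of a start. Of the peaks near Tbx6, 2 lay at the promoter of Ypel3.

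The Meis genes, partners of Hox and Pbx proteins, were all occupied, where 2.12 of the 3 would be at the shares of their CpG deciles. Meis1 (chromosome 11, 18879817–19018985) scored 511, with the peak at 19018508–19019495 centred at -16 bp from a start. Meis2 (chromosome 2, 115863064–116065839) had 8 nearby peaks, the most of any member. They include 2 adjoining promoter peaks of 400 and 395 and 5 intronic peaks with scores from 102 to 259. The stretch searched at Meis2 was 213 kb, the longest of any member, beside a median of 18.1 kb over the members. Meis3 scored 100. The Msx genes, targets of BMP signalling, scored 543 (Msx1), 303 (Msx2) and 78.1 (Msx3), and the head gap genes Emx1 and Emx2 scored 215 and 213. Otx1 scored 102, and Otx2, which specifies forebrain and midbrain, had no peak within 36474 bp of any of its 8 starts. Of the rest, Gsx1 (781) and Barx2 (587) had high promoter scores, Pitx3 scored 323 and Gsx2 scored 117. Barx1, Pitx1, Vax1 and Vax2 were without a promoter peak.

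**Figure D2:**
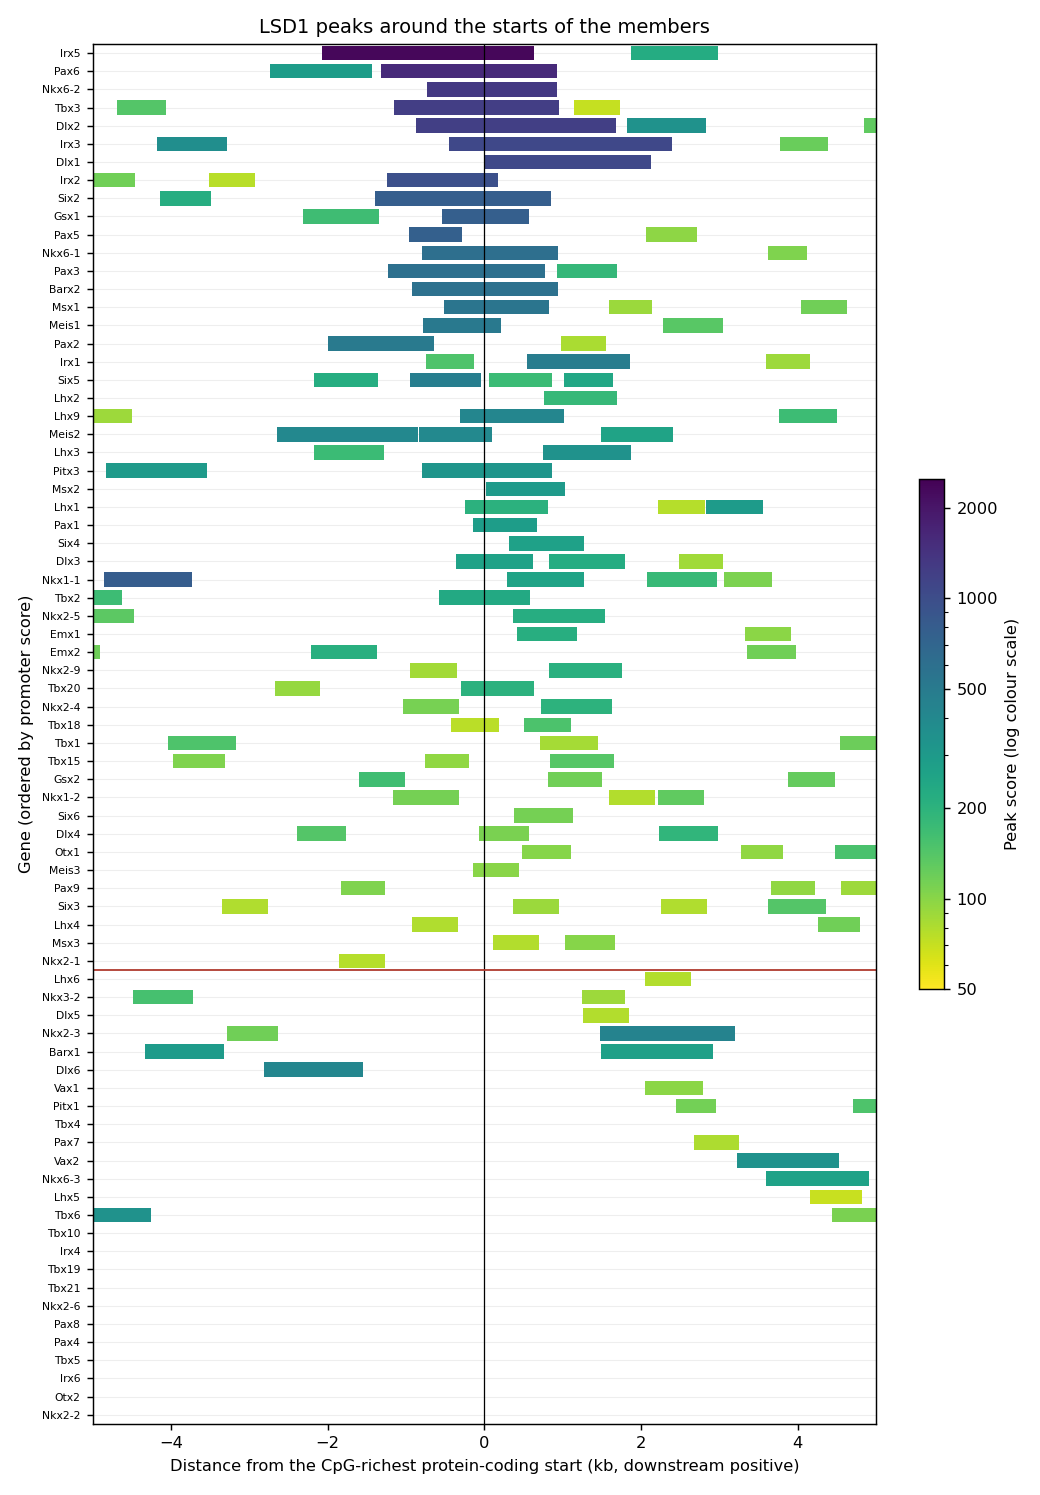
Peaks within 5 kb of the CpG-richest protein-coding start of the members, 1 row per gene in order of promoter score and with downstream to the right; 3 occupied members are not drawn. Bars span the peaks, colour is the score on a log scale, and the red line parts the occupied genes from the 25 unoccupied ones. Occupied genes are placed by any of their starts, so a few such as Pax9 show no bar within 1 kb of the start drawn. Below the first rows the bars move off the start, mostly to the right.

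Peaks lay beside the starts of these genes in many cases. Of the 54 occupied members, 35 had a peak over a start, 64.8% (51.5 to 76.2%), while this was so for 85.8% of all occupied genes. In the other 19, the midpoint of the highest promoter peak lay downstream of the nearest start in 13 and upstream in 6. This split was not counted for all occupied genes, so whether it is particular to the members is not known. Over the occupied members the midpoint was a median of 399 bp from the nearest start, and over all occupied genes 170 bp. The peaks themselves were of like width, with medians of 984 and 1032 bp. Genes with 1 annotated start gave the same picture, with 11 of 20 occupied members (55.0%) having a peak over the start against 81.8% of all occupied genes with 1 start.

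To compare genes with similar promoters, positions were counted in the 70 members and 12433 genes with CpG-rich promoters. This grouping and the distances below were chosen after the peak positions had been seen. A peak covered the CpG-richest start of 27 members, 38.6% (28.0 to 50.3%), against 72.2% of all such genes. Between 1 and 3 kb downstream of that start the order was the opposite, with a peak at 45 members, 64.3% (52.6 to 74.5%), against 31.4% of all such genes. Upstream, between 1 and 3 kb, 22 members had a peak (31.4%), against 25.4% of all. Members with 1 start gave 40.7% at the start and 66.7% downstream, against 70.9% and 33.4% of all such genes with 1 start. The 32 Hox genes with CpG-rich promoters, another large group of homeobox genes, were also low at the start (43.8%, 28.2 to 60.7%) and had 37.5% (22.9 to 54.7%) downstream. The differences between these gene groups were not tested. With peaks above the upper quartile of scores alone, 24 of the 70 members had a peak over the start (all genes 56.0%) and 21 had one downstream (all genes 16.3%).

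**Figure D3:**
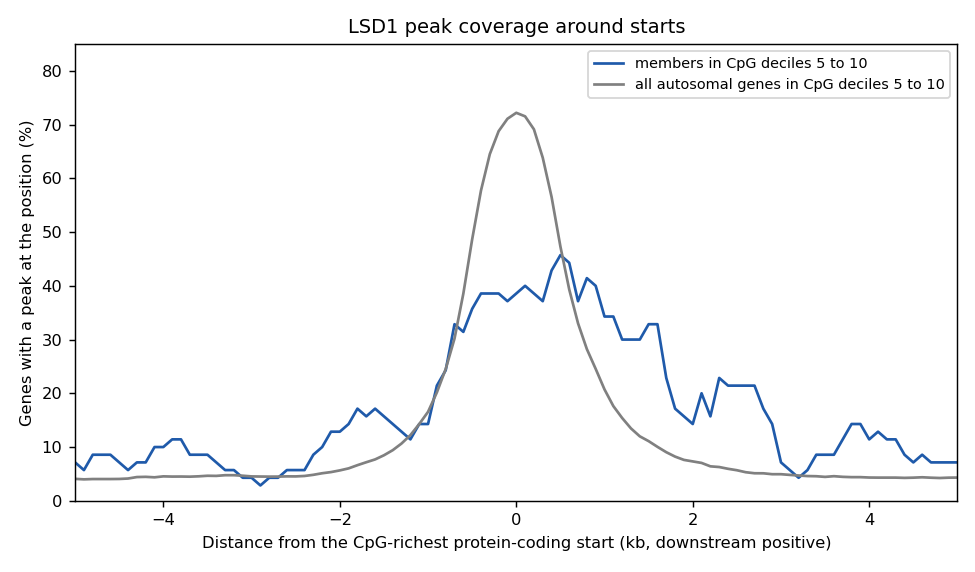
Share of genes with a peak at each position from 5 kb upstream to 5 kb downstream of the CpG-richest start, for the 70 members (blue) and all 12433 autosomal genes (grey) in CpG deciles 5 to 10. The grey line peaks at the start with 72.2%, and the blue line stands at 38.6% there, reaches 45.7% at 500 bp downstream and is still at 32.9% at 1500 bp, where the grey line is at 11.1%.

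Many unoccupied members had a peak at a moderate distance. The nearest peak was a median of 4156 bp from a start for the 25 of them, against 24585 bp for all unoccupied genes. Among those with CpG-rich promoters 12 of 17 (70.6%) had a peak within 5 kb of a start, against 27.9% of all unoccupied genes of this kind. These distances were counted in both directions, and the 17 genes are among the 70 counted above. Just outside the limit of 1 kb stood Lhx6 at 1219 bp, Nkx3-2 at 1244 bp and Dlx5 at 1256 bp, with scores of 78.4, 88.4 and 78.4 for the nearest peaks. Just inside, the farthest occupied members were Gsx2 at 805 bp, Emx1 at 410 bp and Six6 at 375 bp, scoring 117, 215 and 113. Some downstream peaks scored above 210, the median of the peaks over the members' own promoters. The stomach and jaw gene Barx1 had a peak of 276 starting 1488 bp from its start, the gut and spleen gene Nkx2-3 a peak of 435 at 1473 bp, and the eye gene Vax2 an intronic peak of 338 at 3230 bp. At the other end, 8 unoccupied members had no peak within 10 kb of a start.

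Members had CpG-rich promoters as a group, with a median CpG ratio of 0.71 against 0.63 for all genes, and 70 of 79 in deciles 5 to 10. Occupancy of all genes rises with the CpG ratio, from 3.67% in decile 1 to 93.9% in decile 10. If each member were occupied at the share of its own decile, 61.6 of the 79 would be, compared with the 54 counted. Most of this shortfall lay in deciles 4, 7 and 8. In deciles 7 and 8, 7 of 12 and 4 of 8 members were occupied, where all genes stood at 86.5% and 89.7%. In deciles 5, 6, 9 and 10 the counts were 7 of 9, 18 of 22, 10 of 11 and 7 of 8, near the shares of all genes. Of the occupied members, 27 scored above the median of all occupied genes of their decile. The 8 unoccupied members with the highest CpG ratios were Vax1 (0.95), Barx1 (0.88), Irx4 (0.82), Lhx6 (0.79), Otx2 (0.78), Dlx5 (0.77), Tbx21 (0.76) and Dlx6 (0.75), and the 8 with the highest promoter scores ran down from Irx5, Pax6, Nkx6-2, Tbx3, Dlx2, Irx3 and Dlx1 to Irx2.

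**Figure D4:**
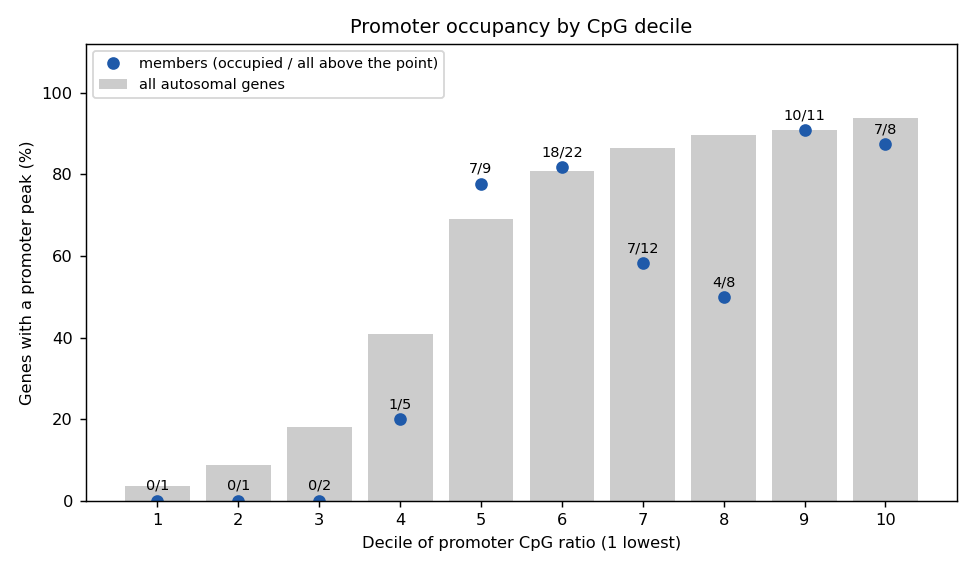
Share of genes with a promoter peak by decile of promoter CpG ratio, with bars for all autosomal genes and blue points for members, labelled with the occupied and total number of members. Points lie near the bars in deciles 5, 6, 9 and 10 and under them in deciles 4, 7 and 8, where 1 of 5, 7 of 12 and 4 of 8 members were occupied.

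CpG islands at these genes were long and only partly under a peak. An island was taken as the run of 200 bp windows with at least 50% GC and a CpG ratio of at least 0.6 that reaches within 500 bp of the CpG-richest start, and 75 members had one. The median length was 1330 bp, against 920 bp for the 14478 autosomal genes with an island. Among islands that met a peak, the peaks covered a median of 55.1% of the island at members and 85.6% at all genes. The 39 Hox genes lay between in both, with a median length of 1080 bp and a median of 66.3% covered. All 17 members with an island of 2 kb or more were occupied, from Nkx6-2 (2350 bp, score 1302) and Tbx3 (2770 bp, score 1231) down to Msx3 (2480 bp, score 78.1) and Lhx4 (3020 bp, score 80.2), and of all genes with islands this long 96.4% were. With islands of 1 to 1.5 kb 17 of 27 members were occupied (63.0%, all genes 90.3%), with 1.5 to 2 kb 8 of 10 (80.0%, all genes 92.7%), with 500 to 1000 bp 11 of 16 (68.8%, all genes 79.0%), and with less 1 of 5 (all genes 42.3%). In the class of 2 to 3 kb the 16 occupied members had a median score of 285, beside 620 for all occupied genes of that island length. Medians went the other way at 1 to 1.5 kb (418, all genes 390) and 1.5 to 2 kb (779, all genes 504), and at 500 to 1000 bp they were 141 and 282. Among the 21 unoccupied members with an island, 1 island met a peak, that of Nkx3-2.

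The members' stretches from 10 kb upstream to the gene end held 200 peaks, with no peak shared by a pair of members. Of these, 78 lay over the member's own promoters, 54 in introns, 38 upstream, 22 in exons, 5 at the promoter of another coding gene and 3 past the gene end. Median scores were 210 for the promoter peaks, 136 in exons, 123 upstream and 104 in introns. For 12 of the 54 occupied members (22.2%, 13.2 to 34.9%) the highest nearby peak was not a promoter peak, against 19.8% of all occupied genes. Peaks outside the members' own promoters were richer in CpG than autosomal peaks over no promoter, but these sets were not matched for place. The 122 peaks outside the members' own promoters had a median CpG ratio of 0.51 (quartiles 0.26 and 0.64), against 0.20 (0.13 and 0.28) for the 44595 autosomal peaks that lie over no promoter. The 122 lie near or within the members and include the 5 at promoters of other coding genes. Some of the 122 also lie within 1 kb of a noncoding RNA start. The 44595 may lie at any distance from a gene. The ratio was 0.68 for exon, 0.48 for upstream and 0.37 for intron peaks, and 0.67 for the promoter peaks. Strong peaks outside the members' own promoters are shown for Nkx1-1, Dlx6 and Vax2. The first lies within 1 kb of the start of the noncoding Gm43851 and the second of Dlx6os1. Their central 200 bases are given from the plus strand of GRCm38.p6, CpGs in capitals, for Nkx1-1 (upstream, score 797), Dlx6 (upstream, score 412) and Vax2 (intron, score 338).
Nkx1-1, chr5:33438172-33438371, plus strand: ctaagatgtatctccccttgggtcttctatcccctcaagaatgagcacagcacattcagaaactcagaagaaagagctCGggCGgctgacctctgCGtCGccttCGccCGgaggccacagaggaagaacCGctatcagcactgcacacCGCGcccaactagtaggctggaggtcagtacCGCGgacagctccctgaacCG
Dlx6, chr6:6861053-6861252, plus strand: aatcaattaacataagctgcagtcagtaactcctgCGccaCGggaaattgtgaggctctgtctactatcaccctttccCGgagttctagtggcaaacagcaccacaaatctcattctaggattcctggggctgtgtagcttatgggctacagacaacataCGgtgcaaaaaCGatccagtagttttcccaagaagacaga
Vax2, chr6:83715045-83715244, plus strand: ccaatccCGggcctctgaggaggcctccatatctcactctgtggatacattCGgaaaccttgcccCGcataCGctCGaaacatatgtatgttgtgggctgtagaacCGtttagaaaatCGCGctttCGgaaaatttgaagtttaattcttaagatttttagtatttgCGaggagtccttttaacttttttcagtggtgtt
They held 12, 5 and 10 CpGs, and the CpG ratio over the whole peak was 0.38, 0.57 and 0.64.

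Members that lie within 100 kb of one another form 9 groups in the genome. In 5 groups all members were occupied, among them Dlx1 with Dlx2, Dlx3 with Dlx4, Six2 with Six3, and Nkx2-1 with Nkx2-9 and Pax9. Neither gene of the Dlx5 and Dlx6 pair was. In the remaining 3 groups the genes differed, as where Tbx2 was occupied and Tbx4 not, and Nkx2-4 was occupied and Nkx2-2 not. Of all members 68.4% were occupied, and how often neighbouring genes at large are occupied together was not counted. Being occupied together did not mean a like score. Six2 stood at 789 and Six3, in the same 74.7 kb stretch that both genes span, at 89.8, whereas Dlx1 and Dlx2 at 1064 and 1215 were close.

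Genes with several annotated starts did not always have a peak at each. Of the 34 occupied members with 2 or more starts, 20 had a peak within 1 kb of every start (58.8%, 42.2 to 73.6%), and this was so for 55.5% of all such genes. At Pax5 2 of 6 starts were within 1 kb of a peak, and at Meis2 4 of 4. With the annotated gene start alone, 49 members were occupied (62.0%), against 54.6% of all genes.

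The partner proteins of these factors were examined as well. All 8 partners of MEIS proteins had a promoter peak, with a median of 414 and the highest score at Tgif1 (1353), where 6.71 would be occupied at the shares of their CpG deciles. Of the partners of the sine oculis proteins, 3 of 5 were occupied, Eya3 with 714, Dach1 with 459 and Eya2 with 130, while Eya1 and Eya4 had no promoter peak. Of 10 LIM homeodomain partners and relatives 9 were occupied with a low median of 127, led by Lmo2 (601), and Lmo3 had no peak. Groucho corepressors, which bind many homeodomain proteins, were occupied in 5 of 6 cases, with Tle4 at 2313 and Tle1 at 1326. For the Polycomb complexes, 10 of 10 genes of complex 2 (median 436) and 15 of 17 of complex 1 (median 365) were occupied. The numbers at the shares of their CpG deciles were 4.45 for sine oculis partners, 7.68 for LIM partners, 4.86 for Groucho genes, 8.96 for complex 2 and 15.4 for complex 1.

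The Hox genes, body axis regulators that stand in 4 clusters, had a similar share of occupied promoters, 28 of 39 or 71.8% (56.2 to 83.5%), with a median score of 152 against 293 for the members. A promoter peak in the top decile of all peak scores (above 391) was found at 23 members, 29.1% (20.3 to 39.9%), and at 3 Hox genes, 7.69% (2.65 to 20.3%), against 24.0% of all autosomal genes. Among CpG-rich promoters the shares were 32.9% (23.0 to 44.5%) of the 70 members and 9.38% (3.24 to 24.2%) of the 32 Hox genes, against 38.3% of all such genes, a share that lies inside the members' interval.

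Recognition sequences of the factors themselves were looked for as exact letters on both strands. The shares below were not matched for base composition, and differences between them were not tested. The 250 bases before the start held a median of 14 CpGs at members and 8 at all genes, and TAATTA holds no G or C. TAATTA, the homeodomain core, stood in the 250 bases before the gene start of 2 of 79 members (2.53%) and of 4.91% of all genes, and in the central 200 bases of 4 of the 200 peaks (2.00%) and of 3.43% of all autosomal peaks. TGACAG, a MEIS site, stood before 9 members (11.4%) and 14.9% of all genes, and in 21 peaks (10.5%) and 13.5% of all peaks. The T-box site AGGTGTGA was before 1 member (1.27%, and 1.04% of all genes) and in 0 of the 200 peaks (0.693% of all peaks). The T-box site ends in the 3 bases with which the MEIS site begins, so a match to one can overlap a match to the other, and a missing match says only that they were not in the window searched.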

How the data were processed

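LSD1 immunoprecipitate and input DNA were each sequenced once. Per the labels' protocols the authors mapped reads to mm10 with Bowtie 2, and MACS 1.41 stands in the submitters' processing notes. The peak threshold, the read filters and the use of the input are not given in the sources used here. What was deposited as the score is the authors' value per peak, on a scale that no label states, and served only to rank and describe peaks of this list. No peak lay beyond a chromosome end of GRCm38.p6. Depth is unknown.

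Genes and starts came from GENCODE M21. A promoter was the 1 kb on either side of any protein-coding transcript start, a nearby peak lay between 10 kb upstream and the gene end, and an overlap of 1 bp counted. CpG deciles are over the 20722 autosomal genes and use the highest ratio over a gene's starts. Python 3.11.15, pandas 2.3.3, numpy 2.4.6 and scipy 1.17.1 were used, and peak assignment was tested on simulated data.

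Genes named are the 8 highest promoter scores, the 8 unoccupied members with the highest CpG ratio, the 5 with most nearby peaks, members known from fat and muscle biology, members within 100 kb of each other and the 3 nearest the promoter limit on each side. Other members named were chosen after their values were seen, so that every family is accounted for. Members and lists were chosen with earlier results of these data known. The CpG decile grouping of positions, the islands, the CpG ratio of peaks and the motif windows were added after the peaks were seen. Alternatives tried were stricter scores, midpoints, other promoter and window sizes, the gene start alone and a stricter reading of symbols. Values of some single members are not reported here.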

Additional observations from a re-analysis of the deposited data

How the results depend on the processing

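Occupancy of the members was recounted under other choices, and 20 of 24 recounts stayed within set limits of the reported value. These were 1.5 times for counts and the 95% order-statistic interval of 213 to 471 for the median score. With peaks above the upper quartile of scores alone the median score was 471, at the upper end of this interval. It then stood above that of all occupied genes (452), whereas the reported medians were 293 and 318. The 20 include the recounts with a stricter reading of symbols, which left the list of members unchanged and so could not differ. Members with a promoter peak numbered 53 with promoters of 500 bp (67.1%, all genes 56.0%), 62 with 2.5 kb (78.5%, all genes 61.6%) and 52 when the midpoint had to lie inside (65.8%, all genes 56.5%). They numbered 49 with the gene start alone (62.0%, all genes 54.6%) and 39 with peaks above the upper quartile of scores (49.4%, all genes 40.4%). With the top decile of scores, 23 members had a promoter peak, 26 had a nearby peak and the median score was 611, values that fall or rise because only high peaks are kept. The shares of all autosomal genes under the same limit were 24.0% and 28.9%, with a median of 642. For the placement of peaks in CpG-rich promoters, alternatives chosen after seeing the data gave 29 members with a peak over the start and 40 with a peak 1 to 3 kb downstream when positions were counted from the annotated gene start (all genes 67.3% and 35.3%). With peaks above the upper quartile of scores the downstream count fell to 21 of 70, and that of all genes to 16.3%, since fewer peaks are kept. Members with a nearby peak numbered 68 with the gene body alone (86.1%, all genes 66.8%) and 76 from 50 kb upstream (96.2%, all genes 82.4%). No paired analysis was possible because there is 1 library per group and no test was made. Without read counts, a missing peak is not distinguished from binding under the authors' threshold.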
